A study of Mus musculus with 2 samples.

Results

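The 8 long non-coding RNA (lncRNA) genes examined here were Malat1, Neat1, Gas5, Snhg1, Meg3, H19, Kcnq1ot1 and Dleu2. They were taken by symbol from the 24346 genes listed in bulk RNA-seq libraries of regulatory T cells (Tregs), and all 8 symbols were listed. Both groups came from mice of the genotype Foxp3-DTR-GFP (FDG mice), aged 10 to 16 weeks, in which GFP follows the endogenous Foxp3 locus, and both had received 50 μg of bleomycin (BLM) into the trachea. On day 15, GFP+CD4+ cells were isolated from the spleen for one group and from the BLM-injured lung for the other. Each tissue gave a single library made from 3 pooled mice, so the values below carry no error between mice and nothing could be tested. Naïve mice and GFP- T cells were not analysed here, so a difference between the libraries compares tissues, not the effect of BLM. The unit is FPKM, a fragment count scaled to transcript length and to library size, which allows different genes to be compared within a library.

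LncRNAs are transcripts without a long reading frame that act as RNA or through the act of being transcribed. Malat1 and Neat1 remain in the nucleus, where Malat1 gathers in speckles of splicing factors and Neat1 is the scaffold of paraspeckles. Gas5 and Snhg1 carry small nucleolar RNAs (snoRNAs) in their introns, and their spliced exons are short-lived because translating ribosomes expose them to nonsense-mediated decay. Meg3, H19 and Kcnq1ot1 are imprinted, which means that they are transcribed from the allele of 1 parent. Meg3 and H19 are abundant in the embryo, whereas Kcnq1ot1 silences neighbouring genes on the paternal chromosome. Dleu2 is the host transcript of miR-15a and miR-16-1, microRNAs that restrain cyclins and BCL2.

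The levels of the members spanned from 0 to 861 FPKM, and their order changed little between the tissues. In spleen the order was Malat1, Gas5, Snhg1, Neat1, Dleu2, Kcnq1ot1, Meg3 and H19, and in lung Neat1 stood above Snhg1. Of the 6 members that reached 1 FPKM in either tissue, only Dleu2 was over 2-fold higher in lung, and 0 were over 2-fold lower. Of all 12094 genes at that level, 17.8% were more than 2-fold up in lung and 15.5% more than 2-fold down. With 1 of 6, the members were near the background in the first direction. None of the 8 passed the 20-fold threshold that the study applied, which 1.62% of all listed genes passed in the direction of lung and 1.17% in that of spleen.

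**Figure D1:**
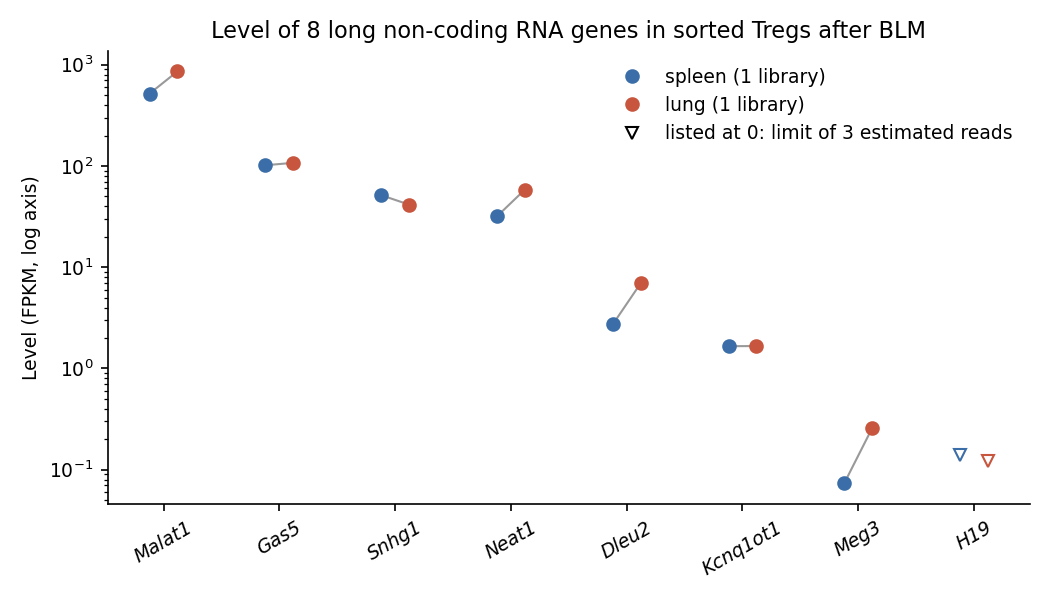
FPKM of the 8 members in the splenic (blue) and lung (red) library on a log axis, 1 point per library, joined by a grey line. Malat1 was the highest member in both, at 520 and 861 FPKM, and H19 was listed at 0 in both, where open triangles mark the level that 3 estimated reads would give.

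The sequences behind Dleu2 as a microRNA host are its products, printed from RefSeq (GRCm38.p6) with the seed, bases 2 to 8, in capitals. The arms miR-15a-5p (chr14:61632075-61632096) and miR-16-5p (chr14:61631936-61631957) lie on the minus strand of the Dleu2 gene and have the same seed.
miR-15a-5p: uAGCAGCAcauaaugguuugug
miR-16-5p: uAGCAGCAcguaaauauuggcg
For H19 the corresponding product is miR-675-5p (chr7:142577112-142577133, minus strand), and for Meg3 it is miR-770-5p (chr12:109563710-109563731, plus strand), whose seeds differ from each other and from that of the Dleu2 products.
miR-675-5p: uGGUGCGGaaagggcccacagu
miR-770-5p: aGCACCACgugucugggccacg
The 4 microRNA genes Mir15a, Mir16-1, Mir675 and Mir770 were listed at 0 FPKM in both libraries. Full-length cDNA primed on poly(A) tails does not capture mature microRNAs, so the host transcripts are what these libraries measured.

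The start regions of Malat1, Gas5 and Snhg1, the highest members in spleen, are shown because their first bases differ. Each window runs from 50 bases before the annotated start through the first 50 bases of the RNA, from RefSeq, GRCm38.p6. Capitals mark TATAAA and TGACGT (the core of a cAMP response element) on either strand, and in Gas5 also the run of C and T at its first base.
Malat1, chr19:5802623-5802722, minus strand: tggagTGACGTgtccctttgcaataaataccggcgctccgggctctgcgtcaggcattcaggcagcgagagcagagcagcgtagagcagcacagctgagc
Gas5, chr1:161035116-161035215, plus strand, at the start inside the gene: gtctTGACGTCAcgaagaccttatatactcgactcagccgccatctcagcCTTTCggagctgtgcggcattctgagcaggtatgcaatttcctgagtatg
Snhg1, chr19:8723437-8723536, plus strand: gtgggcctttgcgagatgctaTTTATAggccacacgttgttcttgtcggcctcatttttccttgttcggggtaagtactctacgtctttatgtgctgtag
RNA from this Gas5 start opens with 5 pyrimidines, the beginning of a terminal oligopyrimidine tract as found in transcripts of the translation machinery. Of all 32851 RefSeq starts, 2.51% open with a C in a run of at least 5. The other Gas5 start does not open with a C, while Snhg1 opens with 3 pyrimidines and Malat1 with 1. Over 300-base windows on either strand, 6 members had an entry, Gas5 and Meg3 with 2 starts each, so that these had a greater chance of a match than a single window. TGACGT was found for Malat1, Gas5, Meg3 and Kcnq1ot1 and in 7.51% of all 32851 windows, and TATAAA for Snhg1, Meg3 and, after the start, Dleu2 and in 13.6% of all. GGGCGG, the core of a GC box, was found for Gas5, Snhg1 and Dleu2 and in 35.7% of all, and CCAAT for Meg3 and Kcnq1ot1 and in 37.4% of all. The overlapping pair of TGACGT matches in Gas5 forms a palindrome. These matches describe the letters only, and no measurement of binding belongs to these data.

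Malat1, the speckle RNA, had the highest FPKM of the members. It is a transcript of 6983 nt from a single-exon gene on chromosome 19 of mm10, minus strand, from 5795690 to 5802672 (ENSMUSG00000092341.3). It was listed at 520 FPKM in spleen against 861 in lung, about 36518 and 68649 estimated reads. Read numbers were estimated from the low FPKM values, as described under the processing, and 1 read at an effective length of 1 kb was worth 0.0964 FPKM in spleen against 0.0849 in lung. The ratio of lung to spleen was 1.66, with a 95% interval of 1.63 to 1.68 that covers counting error only, since PCR copies count as separate reads and mice do not enter it. Malat1 ranked 170 among all genes in spleen and 150 in lung. Of the 1721 listed genes that both GENCODE and RefSeq annotate as lncRNA, AW112010 alone was higher than Malat1, with 1416 FPKM in spleen against 2291 in lung.

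Neat1, the paraspeckle scaffold, lies 22.0 kb from Malat1 on the same strand of chromosome 19, from 5824708 to 5845478. It was at 31.8 FPKM in spleen against 58.4 in lung, so its ratio of 1.83 was of similar size to that of its neighbour. Its short transcript of 3004 nt is contained in the long one of 20771 nt, and FPKM do not show which of them was present. The values thus correspond to between 923 and 6788 estimated reads in spleen and between 1920 and 14127 in lung, and with the lower numbers the counting interval of the ratio was 1.69 to 1.98. In FPKM, Malat1 exceeded Neat1 16.3-fold in spleen and 14.7-fold in lung. Because cDNA was primed on poly(A) tails, these levels also depend on how well each transcript was primed, which was not measured. The same holds for the short and the long Neat1 transcript.

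The RNA-binding proteins that these nuclear transcripts work with were counted on both scales described below. Of all 12094 genes, 5868 were lower in lung as deposited and 8138 after rescaling to TPM, so most genes were lower on the latter scale. Of 8 genes of paraspeckle proteins 6 were lower in lung on either scale, with a median log2 ratio of -0.25 as deposited and -0.68 after rescaling, among them the core proteins Nono (163 FPKM in spleen against 136 in lung) and Sfpq (45.1 and 26.7). Rbm14 was the only one of them over 2-fold lower as deposited, with 23.7 FPKM in spleen against 8.28 in lung, and after rescaling 2 of the 8 were. Of all 12094 genes, 15.5% were over 2-fold lower as deposited and 25.9% after rescaling. Nudt21, a subunit of the cleavage complex that ends the short Neat1 transcript, was higher in lung, at 93.4 and 146 FPKM, as was Pspc1, at 13.7 and 20.4. Of 5 genes of nuclear speckle proteins 3 were lower in lung as deposited and 5 after rescaling to TPM, and the deposited median log2 ratio was -0.17. Srrm2, which builds the core of the speckles, was at 79.6 FPKM in spleen against 56.0 in lung, and Son was at 48.3 and 50.6.

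Gas5 and Snhg1, the snoRNA hosts among the members, had close levels in both tissues. Gas5 lies on the plus strand of chromosome 1 from 161034422 to 161038539 and was at 102 FPKM in spleen against 108 in lung, about 2475 and 2971 estimated reads. The ratio was 1.06, with a counting interval of 1.0 to 1.12. Snhg1 lies on the plus strand of chromosome 19 from 8723475 to 8726443 and was at 51.5 FPKM in spleen against 41.5 in lung, about 212 and 194 reads on a transcript of 605 nt. Its ratio of 0.807, with a counting interval of 0.660 to 0.984, was the only one below 1 among the members. The level of Gas5 relative to Snhg1 was 1.97 in spleen and 2.59 in lung.

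Of the snoRNAs that these introns release, most were not among the listed symbols. Snord22, of an intron of Snhg1, was at 124 FPKM in spleen against 164 in lung, which on a gene of 126 nt is about 29.6 and 44.4 estimated reads. The counting interval of its ratio, 0.794 to 2.13, included 1, so no difference was detectable at this depth. Since cDNA was primed on poly(A) tails, these reads cannot be taken as the level of the released snoRNA. Reads of unspliced Snhg1 RNA over the same bases cannot be told apart from it. Snord47, of an intron of Gas5, was listed at 0 in both. The genes of 4 proteins that assemble on box C/D snoRNAs had a median log2 ratio of -0.14 (2 of 4 lower in lung as deposited, 4 of 4 after rescaling to TPM), with the methyltransferase Fbl at 63.2 FPKM in spleen against 67.2 in lung. Of 7 genes of the nonsense-mediated decay pathway, 5 were lower in lung as deposited and 7 after rescaling, on which scale 8138 of the 12094 genes were lower too. The helicase Upf1, at 19.8 and 7.51 FPKM, and its partner Upf2, at 8.14 and 3.10, were the 2 over 2-fold lower as deposited. After rescaling 3 of the 7 were. The shares of all 12094 genes over 2-fold lower were 15.5% as deposited and 25.9% after rescaling. Smg1, the kinase that phosphorylates Upf1, was at 12.6 and 12.8.

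Dleu2 had the highest ratio of the members at 1 FPKM or more. Its gene spans 79535 nt on the minus strand of chromosome 14, from 61602839 to 61682373. It was at 2.73 FPKM in spleen against 6.92 in lung, about 34.7 and 100 estimated reads on the 1437 nt of its spliced transcript. The ratio was 2.54 with a counting interval of 1.70 to 3.81, and 86.2% of all genes at 1 FPKM or more had a lower ratio. After rescaling to TPM the ratio was 1.88. Trim13 and Kcnrg overlap the Dleu2 gene on the opposite strand, and the protocol keeps no strand. The exons of this 1437-nt Dleu2 transcript shared 0 nt with those of their transcripts tied to RefSeq. Other transcripts of these genes were not compared.

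The imprinted members were low or not detected. Kcnq1ot1, an unspliced RNA of 83437 nt in RefSeq and 93092 nt in GENCODE, lies on the minus strand of chromosome 7 from 143203458 to 143296549, within Kcnq1 and antisense to it. It was listed at 1.66 FPKM in spleen against 1.67 in lung, and because of its length this low level rested on at least 1433 and 1632 estimated reads. The ratio was 1.0, with a counting interval of 0.934 to 1.08, the closest to 1 of all detected members. Kcnq1 itself covers the same bases on the other strand but shares only 121 nt of exon with Kcnq1ot1 in the transcripts tied to RefSeq. It was at 0 FPKM in spleen against 0.0602 in lung.

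Meg3, on the plus strand of chromosome 12 from 109541001 to 109571726, was at 0.0737 FPKM in spleen against 0.257 in lung. Depending on which of 3 transcripts of 1896 to 14548 nt gave the reads, these values correspond to 1.29 to 11.0 estimated reads in spleen and 5.10 to 43.3 in lung. The ratio of the listed values was 3.48, and its counting interval reached from 0.493 to 208 with the shortest transcript and from 1.75 to 7.40 with the longest. H19, on the minus strand of chromosome 7 from 142575529 to 142578143, was listed at 0 in both libraries. For its transcript of 2286 nt, a count of 0 allows up to 0.139 FPKM in spleen against 0.123 in lung, which is a limit of counting error only. Igf2, the reciprocally imprinted neighbour of H19, was at 0.0553 and 0 FPKM, and Dlk1, that of Meg3, was at 0 in both.

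Scaling decided the direction of some members. The deposited FPKM summed to 599633 in spleen and 808853 in lung, and rescaling both libraries to TPM, in which the sums are equal, lowered the log2 ratio of genes above the floor by 0.43. The median log2 ratio of the 6 members was 0.40 as deposited and -0.028 after the rescaling, and that of all genes at 1 FPKM or more was 0.031 and -0.40. The members' median stood above that of all genes, and since rescaling moves both medians alike, the second scale adds nothing to this. The annotated lncRNA class had similar medians to the members, 0.40 and -0.035. Malat1 and Neat1 stayed higher in lung after rescaling, with ratios of 1.23 and 1.36. Gas5 and Kcnq1ot1 changed sides, to 0.784 and 0.744, and Snhg1 was lower in lung on both scales, at 0.598 after it.

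**Figure D2:**
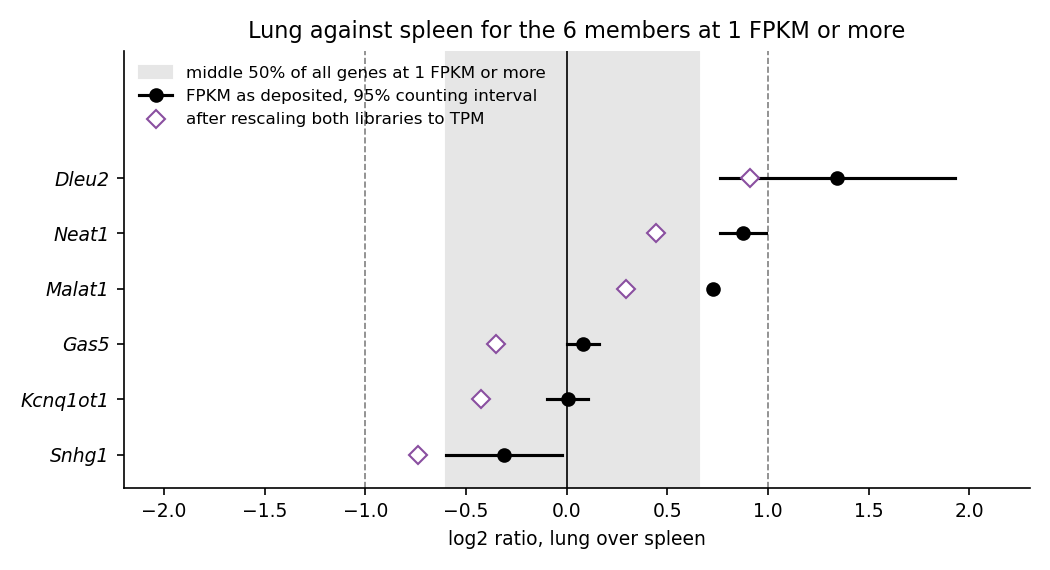
Log2 ratio of lung over spleen for the 6 members at 1 FPKM or more, as deposited (black points with 95% counting intervals) and after rescaling to TPM (open diamonds). The grey band holds the middle 50% of all genes at 1 FPKM or more as deposited, from -0.60 to 0.66. It was not redrawn for the TPM scale, so the diamonds cannot be read against it. Dashed lines mark 2-fold. Gas5, Kcnq1ot1 and Snhg1 lie within the band as deposited, and Dleu2 lies beyond 2-fold only as deposited.

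Genes of other cells moved with the tissue. All 9 listed macrophage markers were higher in lung, 7 of them also after rescaling to TPM, and their summed level was 665 FPKM in spleen against 31781 in lung. Most of the lung sum was Lyz2 (376 and 24947 FPKM), while Csf1r (43.8 and 50.1) and Mrc1 (7.64 and 9.41) differed little. All 6 fibroblast markers were higher in lung (summed 0.290 and 163 FPKM, with 3 of them at 0 in spleen), as were all 5 neutrophil markers (425 and 1200 FPKM). So were 3 of 4 lung epithelial markers (summed 10.3 and 3122 FPKM over the 4, in lung mostly Scgb1a1 at 3021). B cell markers were lower in lung in 5 of 5 cases, at 241 and 126 FPKM, as were 4 of 4 erythroid markers, at 23.5 and 1.48. Of the 4 endothelial markers 2 were higher in lung, and their sum was 55.0 and 38.6 FPKM. T cell markers were at 1556 and 1423 FPKM, with 2 of 5 higher in lung, and of 4 Treg markers Foxp3 (18.7 and 41.8 FPKM) and Ctla4 (221 and 601) were higher in lung and Il2ra and Ikzf2 were not. The part of other cells in the ratios of Malat1, Neat1, Dleu2 and Meg3 was not tested, and in bulk RNA more cells of a type and more RNA per cell cannot be told apart.

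Beyond the members, 52 other named lncRNA genes were looked up in lists grouped by role. Of these 47 were listed and 29 reached 1 FPKM, and the 29 had a median log2 ratio of 0.27. Over 2-fold differences were found in 7 of the 29 towards lung and in 4 towards spleen as deposited, and in 4 and 8 after rescaling to TPM. Among these, Snhg14, Mir143hg and Mir17hg were at 0 in 1 library, so the filter and the floor fixed their calls. Among the 391 annotated lncRNAs at 1 FPKM or more, 31.5% were over 2-fold higher in lung and 20.7% over 2-fold lower, with a median log2 ratio of 0.40. After rescaling to TPM, 14 of the 29 genes and 191 of the 391 were higher in lung, and the medians were -0.17 and -0.035. Of the 391, 93 were then over 2-fold higher and 111 over 2-fold lower. For comparison, the background of 12094 genes had 17.8% beyond 2-fold towards lung and 15.5% towards spleen as deposited. Rescaling to TPM shifted these background shares to 13.1% and 25.9%.

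Other snoRNA hosts lay on both sides of the 2 member hosts. Of 14 at 1 FPKM or more 9 were higher in lung as deposited and 7 after rescaling. Snhg5 was at 53.9 FPKM in spleen against 98 in lung, Snhg6 at 29.6 and 55.9, and Snhg20 at 49.7 and 99.7, a ratio of 2.01 with a counting interval of 1.69 to 2.37. Snhg8, at 32.3 and 26.1 FPKM, had a ratio of 0.809, close to that of Snhg1. Dancr was over 2-fold lower in lung, at 6.29 and 2.98, and was the only such host as deposited, against 3 after rescaling. In the other direction 3 hosts passed 2-fold as deposited (Snhg7, at 2.35 and 4.93 FPKM, Snhg14 and Snhg20), and 1 after rescaling. Snhg14, a long transcript of the imprinted Prader-Willi locus, was listed at 0 in spleen and 2.05 FPKM in lung, so its 2-fold call was fixed by the filter and the floor. Snhg14 had about 48.0 estimated reads in lung and was at least 14.1-fold higher there when spleen is credited with 3 reads.

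Of 4 microRNA hosts that reached 1 FPKM, 3 were over 2-fold higher in lung and 1 over 2-fold lower on both scales. Of all 12094 genes, 17.8% were higher and 15.5% lower by this measure as deposited, and 13.1% and 25.9% after rescaling. For 2 of the hosts, Mir17hg and Mir143hg, 1 library was at 0. Their calls were fixed by the filter at 1 FPKM and the floor of 0.1 FPKM. Mir155hg, the precursor of miR-155, which activated lymphocytes and macrophages induce, was at 5.58 FPKM in spleen against 23.9 in lung, a ratio of 4.29 with a counting interval of 3.25 to 5.75. Mir22hg was at 3.53 and 10.4 FPKM. In the other direction Mir17hg, the host of the miR-17-92 cluster of proliferating cells, was at 4.40 FPKM in spleen and was listed at 0 in lung. Mir143hg, of smooth muscle and stromal cells, was listed at 0 in spleen and at 1.63 FPKM in lung. Dleu2, itself a microRNA host, lay with Mir22hg and Mir155hg on the side of lung.

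**Figure D3:**
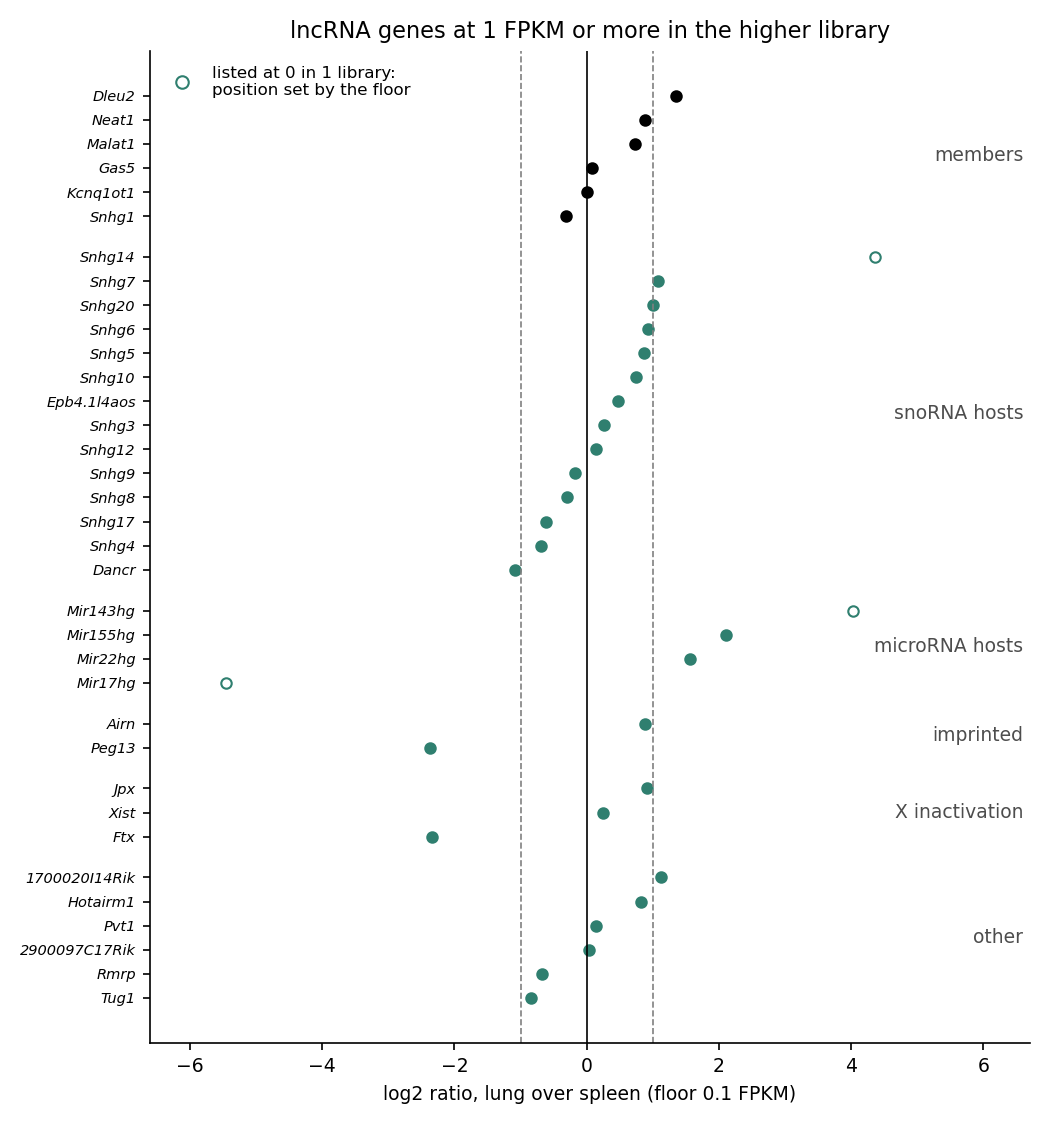
Log2 ratio of lung over spleen for the 6 members (black) and the 29 other lncRNA genes (green) that reached 1 FPKM in either tissue, grouped by role. Open circles mark genes listed at 0 in 1 library, whose position depends on the floor of 0.1 FPKM, and dashed lines mark 2-fold. Mir17hg, Peg13 and Ftx lie far to the left and Snhg14, Mir143hg and Mir155hg far to the right of the members.

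Of 6 imprinted lncRNAs outside the members 2 reached 1 FPKM. Peg13, an intronic transcript of Trappc9, was at 10.4 FPKM in spleen against 2.01 in lung, a ratio of 0.193 with a counting interval of 0.155 to 0.238. Airn, antisense to Igf2r, was at 4.23 and 7.81 FPKM. Rian and Mirg, which share the locus of Meg3, were at 0.0286 and 0 FPKM and at 0 in both. Of the X inactivation genes, Xist itself was at 17.1 FPKM in spleen against 20.3 in lung. Jpx, an activator of Xist, was at 0.564 and 1.06 FPKM, a ratio of 1.89 with a counting interval of 1.10 to 3.34, whereas Ftx was lower in lung, at 3.10 and 0.614, and Firre, which did not reach 1 FPKM, was at 0.981 and 0.0152. Of the remaining lncRNAs 6 reached 1 FPKM, 4 of them higher in lung as deposited and 2 after rescaling. Tug1, a nuclear and cytoplasmic RNA, was at 47.5 FPKM in spleen against 26.5 in lung, and 1700020I14Rik was at 26.1 and 56.8.

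The coding genes of the members' loci mostly had other ratios than the lncRNA beside them. Frmd8, 4.22 kb from Neat1, was at 111 FPKM in spleen against 57.6 in lung, while Neat1 and Malat1 were higher in lung. Snhg1 and Slc3a2, which encodes the heavy chain of amino acid transporters, start 106 nt apart on opposite strands. Slc3a2 was at 55.7 FPKM in spleen against 104 in lung, a ratio of 1.88 with a counting interval of 1.76 to 2.0, against 0.807 for Snhg1. These intervals, which cover counting error only, did not overlap. Since both values come from the same libraries, no scaling factor changes how the ratios compare. Variation between mice or preparations is not covered, so the difference between the 2 ratios was not tested. Zbtb37, which starts 427 nt from Gas5 on the opposite strand, was at 4.75 and 3.95 FPKM, and Wdr74, on the other side of Snhg1, was at 58.0 and 49.3.

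In the imprinted domain of Kcnq1ot1, Cdkn1c, the cyclin-dependent kinase inhibitor p57 that Kcnq1ot1 is known to silence in cis, was at 1.37 FPKM in spleen against 5.66 in lung. Slc22a18, a transporter gene of the same domain, was at 0.223 and 3.74 FPKM, about 3.11 and 59.1 estimated reads, and Phlda2 was at 0 in both. Cd81 (132 and 164 FPKM) and Tssc4 (25.2 and 32.9 FPKM), at the border of the domain, had ratios of 1.24 and 1.3 as deposited, which turned below 1 after rescaling to TPM. The ratio of Kcnq1ot1 itself was 1.0. Around Dleu2, Spryd7 was at 9.44 FPKM in spleen against 21.7 in lung, a ratio of 2.3, close to that of Dleu2. Trim13, a ubiquitin ligase gene, was at 5.92 and 7.26 FPKM, and Kcnrg, a potassium channel regulator, was at 0.243 and 3.26, about 4.06 and 61.9 estimated reads.

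**Figure D4:**
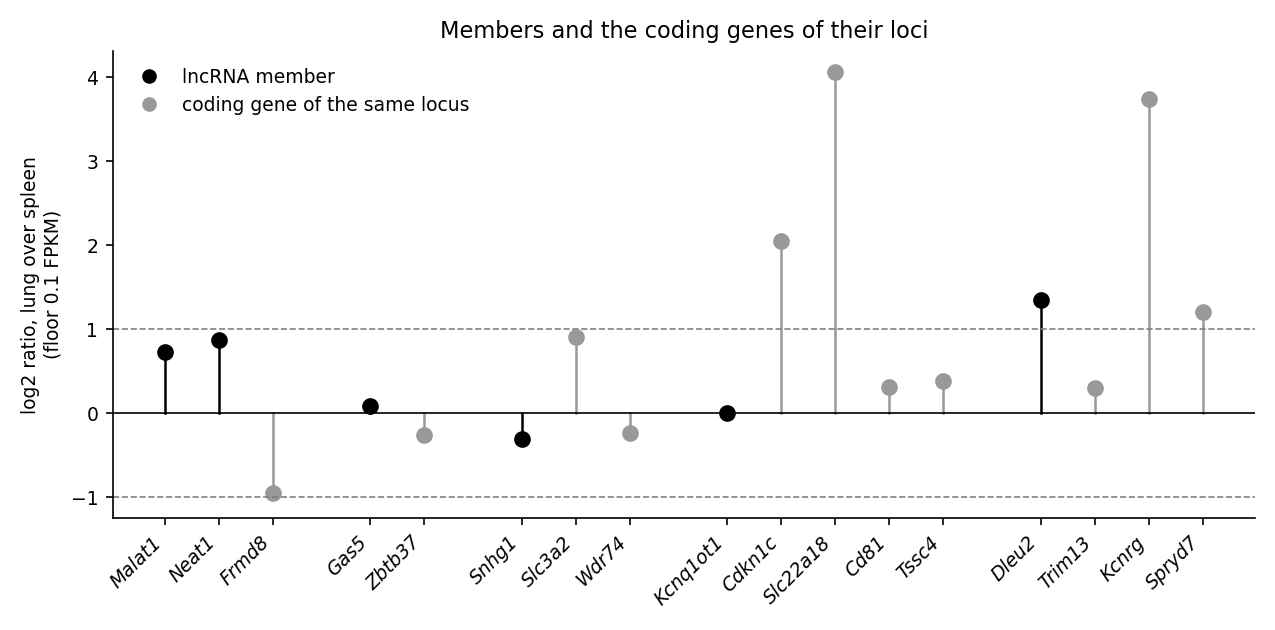
Log2 ratio of lung over spleen for members (black) and the coding genes of their loci (grey) that reached 1 FPKM in either tissue, 1 cluster of points per locus. Snhg1 and Slc3a2 lie on opposite sides of 0, Kcnq1ot1 lies at 0 while Cdkn1c and Slc22a18 lie above 2-fold, and Dleu2 and Spryd7 lie together.

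To place the 3 members highest in spleen among all genes, the genes with the nearest pair of values were found by the distance of log2(FPKM + 0.1) over the 2 libraries. For Malat1 these were Cox6c, a subunit of cytochrome c oxidase (501 FPKM in spleen against 835 in lung), and Rps12, a ribosomal protein gene (545 and 893). Gas5 was nearest to Psmc1, of the proteasome (99.3 and 107 FPKM), and to Plp2 (99.1 and 110). Snhg1 was nearest to Thap3 (50.9 and 40.9 FPKM) and Dedd2 (50.3 and 41.4). Within a distance of 0.1 lay 2 genes for Malat1, 14 for Gas5 and 26 for Snhg1, and likeness over 2 libraries says nothing of shared control.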

How the data were processed

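The authors aligned 75-base single-end reads to mm10 with TopHat2 2.1.1, Bowtie2 2.2.8 and SAMtools 0.1.18, and the deposited FPKM values were calculated with Cuffdiff 2.2.1. The annotation and the options of Cuffdiff are not given in the sources used here. cDNA came from the SMART-Seq HT kit and Nextera XT, without molecular identifiers or strand.

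Here, FPKM under 0.1 were set to 0.1, and ratios are lung over spleen. Genes that reached 1 FPKM in either tissue formed the background, and 2-fold and the study's 20-fold were counted. With 1 library per tissue nothing was tested. Named genes were the 8 members, lists grouped by role, coding neighbours and the genes nearest to the 3 members highest in spleen. 1 of the coding neighbours looked up is not reported here. The members and lists were chosen with earlier results of these data known. The annotated lncRNA class, the overlaps and the sequences were added after the values were seen.

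Estimated reads used GENCODE M21 transcripts (GRCm38) tied to RefSeq, an effective length for fragments of 200 ± 80 nt of at least 75 nt, and as the value of 1 read the mode of FPKM times effective length over genes of 1 transcript length of at least 1500 nt. Among such genes with 1 to 10 reads, 74.6% in spleen and 76.9% in lung lay within 0.1 of a whole number. Intervals of ratios are conditional exact binomial (Clopper-Pearson, 95%), and a count of 0 was given a limit of 3 reads. 2-fold calls and the value of 1 read were tested on simulated data with counting error only. There, 100 of 100 raised and 100 of 100 lowered genes were called. The planted changes were larger than 2-fold and lay in genes of over 100 mean reads. Calls near 2-fold or at low read numbers were therefore not tested. Calculations ran in Python 3.11.15 with pandas 2.3.3, numpy 2.4.6 and scipy 1.17.1, and plots in matplotlib 3.10.9.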

Additional observations from a re-analysis of the deposited data

How the results depend on the processing

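Under 10 alternatives (other floors, added pseudocounts, 3 scalings, stricter filters and a minimum of 3 reads), the number of members over 2-fold higher in lung stayed at 1 except after rescaling to TPM, where it was 0, and the number over 2-fold lower was 0 in every case. Without any filter on low values, an alternative chosen after seeing the data, 2 of 8 members were over 2-fold higher, Meg3 being the addition, with 2678 of all 24346 genes higher and 2850 lower. The members' median log2 ratio of 0.40 became -0.028 after rescaling to TPM, 0.35 with equal upper quartiles, and 0.73 when 5 FPKM were required, which leaves out Kcnq1ot1. Malat1, Neat1 and Dleu2 were higher in lung in 10 of 10 alternatives, with ratios of 1.23 to 1.66, 1.36 to 1.83 and 1.88 to 2.54. Snhg1 was lower in 10 of 10, at 0.598 to 0.811. For these genes only the 3 scalings could have changed the direction. At their levels the floors, pseudocounts, filters and the minimum of 3 reads could not. Gas5 fell below 1 in 1 of 10 and Kcnq1ot1 in 3 of 9. Meg3 ranged from 1.0 to 3.48 with the floor and the scaling. Among all genes, 3133 were over 2-fold lower in lung after rescaling to TPM against 1872, and 1192 higher and 1037 lower with 5 FPKM required. No paired analysis was possible because each tissue has 1 library. The absence of replicate libraries limits every comparison, and for Meg3, H19 and Kcnrg the read numbers do as well.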
